A study of Rattus norvegicus with 4 samples.

Results

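The course of long non-coding RNA (lncRNA) transcripts under continued high glucose was followed in primary neonatal rat cardiomyocytes, by comparing 1 library taken after 48 h with 1 library taken after 24 h. Both come from cells of Sprague-Dawley rats aged 1 to 2 days, kept in M199 medium with 33 mmol/l glucose, a model of oxidative stress and apoptosis. Normal glucose libraries (5 mmol/l glucose with 28 mmol/l mannitol to equal the osmolality), 1 at 24 h and 1 at 48 h, make up the other 2 of the 4 libraries. All 4 cultures also held carnitine at 2 mM, creatine at 5 mM and taurine at 5 mM. The labels do not say how many animals or dishes stand behind a library. Transcripts were kept where their mean over the 4 libraries was at least 1 FPKM (counts divided by the length of the transcript and the size of the library), which left 7321 of the 17934 that were listed in any library. The transcript just inside this limit had a mean of 1.00047 FPKM and the one just outside 0.999 FPKM. With 1 library a side the differences have no replicate check, so ratios carry counting intervals and no p-values.

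lncRNAs are long transcripts with no known protein product. Many act near the place where they are made, some hold nuclear structures together or bind other RNAs, and for many no role is known. A locus often yields several lncRNA isoforms that differ in their exons or ends. In heart muscle cells lncRNAs have been tied to growth, stress responses and cell death, and chronically high glucose is the setting of diabetic heart disease. The tables identify transcripts by NONCODE, Ensembl or assembly identifiers without gene names, and no sequence of them was used here. Positions are those the tables give in the rat build rn6. Whether a span lies in an exon, intron or untranslated region of a protein-coding gene was not analysed here, and neither were the markers of cardiomyocytes and other heart cells, which are protein-coding.

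lncRNA counts summed to 1069067 at 24 h and 904979 at 48 h in high glucose, out of library totals of 15654067 and 14225730 recovered from the FPKM values. Levels are given as counts per 1000000 of these totals (CPM), on which 1 read was 0.0639 CPM at 24 h and 0.0703 CPM at 48 h. The lncRNA share of the total at 48 h was 0.932 times that at 24 h, with a 95% counting interval of 0.929 to 0.934. In normal glucose the same ratio was 1.02 (1.01 to 1.02). The 48 h high glucose library had the lowest CPM of the 4 for 42.4% of the measured transcripts, against 17.3% to 22.0% for each other library. With other scalings of the libraries, set from the lncRNA counts themselves, it was lowest for 31.1% to 32.8%. All comparisons of 48 h with 24 h in high glucose rest on that library, so none can be given without it.

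After 48 h in high glucose, 188 transcripts stood at least 2-fold above their 24 h level and 318 at least 2-fold below it. The fold used here is the difference of log2 (CPM + 1), so that ratios of low transcripts come out smaller than those of their CPM. Together they were 6.91% of the 7321 measured transcripts (2.57% higher and 4.34% lower). Between the same times in normal glucose 4.67% were past 2-fold (2.02% higher and 2.65% lower). The middle of the distribution was narrow, with 50% of the transcripts between log2 ratios of -0.35 and 0.16 and a median of -0.09. The tails were long, with 81 transcripts past 8-fold (1.11%), 38 of them higher (0.519%) and 43 lower (0.587%). In normal glucose 64 were that far apart (0.874%), 33 higher (0.451%) and 31 lower (0.423%). The counting interval of the CPM ratio, taken without the added 1, lay wholly past 2-fold for 422 transcripts (5.76%), 167 higher and 255 lower. These are not all among the transcripts called above: they took in 163 of the 188 and 239 of the 318.

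**Figure D1:**
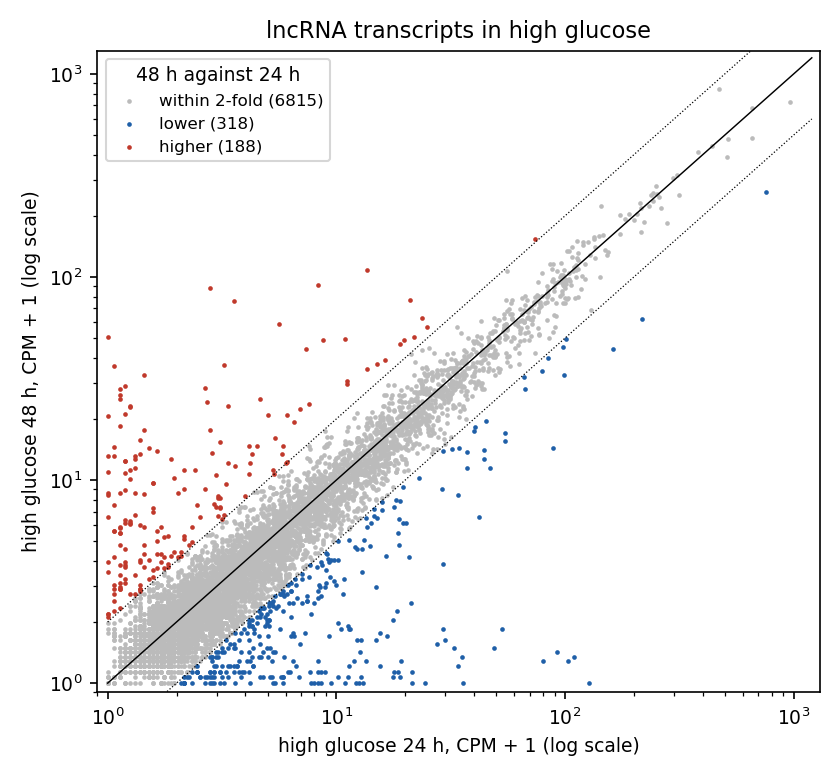
CPM + 1 of the 7321 measured lncRNA transcripts in high glucose at 24 h (horizontal axis, log scale) and 48 h (vertical axis, log scale), 1 point per transcript. The solid line marks equal levels and the dotted lines 2-fold. Most points follow the line, while 188 lie above and 318 below the dotted lines, many of them along the edges, near absent in 1 of the libraries.

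The direction of the bulk depended on the scaling. TMM factors and median-of-ratios size factors, both fitted on the counts of these measured lncRNAs, raised the median log2 ratio in high glucose by 0.094, to 0.0065. They gave 230 transcripts higher and 280 lower. A median near 0 and a more even split are largely built in there. They are therefore no check on the lower lncRNA share at 48 h. All 188 that were higher on the library totals were also higher with either set of factors. Of the 318 lower, 280 remained past 2-fold. The counting intervals of 2195 transcripts (30.0%) excluded a ratio of 1 with library totals, 749 above and 1446 below. With TMM factors 2141 did, 1106 above and 1035 below. In normal glucose 17.4% of the intervals excluded 1. Each of these scalings multiplies every CPM ratio in high glucose by 1 common factor, at most 1.10.

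The transcript with the lowest ratio was NONRATT005474.2 (chr10:45563313-45579139, 1014 nt after splicing). It had 1974 reads at 24 h in high glucose (126 CPM) and was not listed at 48 h, 598-fold lower against a floor of 3 counts in that library. By its 95% counting interval it was at least 486-fold lower. In normal glucose it stood at 70.0 CPM at 24 h and 132 CPM at 48 h, so the 48 h high glucose library alone lacked it. Of the reads of its locus, with 4 listed transcripts, it took 85.8% at 24 h and none at 48 h in high glucose, while its neighbour NONRATT005475.2 went from 8.57% to 90.5%. The locus sum was 147 CPM at 24 h and 37.9 CPM at 48 h, lower by far less than the leading isoform. Next came NONRATT017367.2 (chr20:28002028-28004766, 2739 nt in a single block), with 1700 reads at 24 h and 5 at 48 h. Its CPM was 309-fold lower (95% counting interval 132 to 953). The normal glucose libraries held it at 122 CPM and 109.5 CPM, close to the 109 CPM of high glucose at 24 h. A very similar course was seen for NONRATT002849.2 (chr1:146069775-146071454, 1680 nt in a single block). It went from 102 CPM to 0.281 CPM in high glucose, 364-fold lower (142 to 1339), and stood at 172.5 CPM and 151 CPM in normal glucose.

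Over the 10 transcripts ranked lowest, the log2 ratio ran from -6.99 to -4.71. In normal glucose 6 of these 10 were within 2-fold between the times, 3 were past 2-fold lower and 1 past 2-fold higher. Of the 10, 5 were single blocks, whose length fills their span, and 5 overlapped no other listed transcript.

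At the other end, NONRATT024883.2 (chr6:27565694-27582980, 683 nt after splicing) had no reads at 24 h and 707 at 48 h in high glucose (49.7 CPM). By its 95% counting interval it was at least 210-fold higher. It was also not listed in normal glucose at 24 h and had 478 reads (32.2 CPM) there at 48 h. NONRATT024745.2 (chr6:963902-988572, 1368 nt after splicing) was close to absent at 24 h in both media, with 1 read in each, and had 505 reads at 48 h in high glucose and 515 in normal glucose. Its time ratio was 1.35 times as large in high as in normal glucose, with a counting interval of 0.0172 to 106, which includes 1 and is wide because of the single reads at 24 h. Of the 10 ranked highest, with log2 ratios from 4.37 to 5.66, 4 were past 2-fold higher in normal glucose too, 2 were past 2-fold lower there and 4 were within 2-fold.

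**Figure D2:**
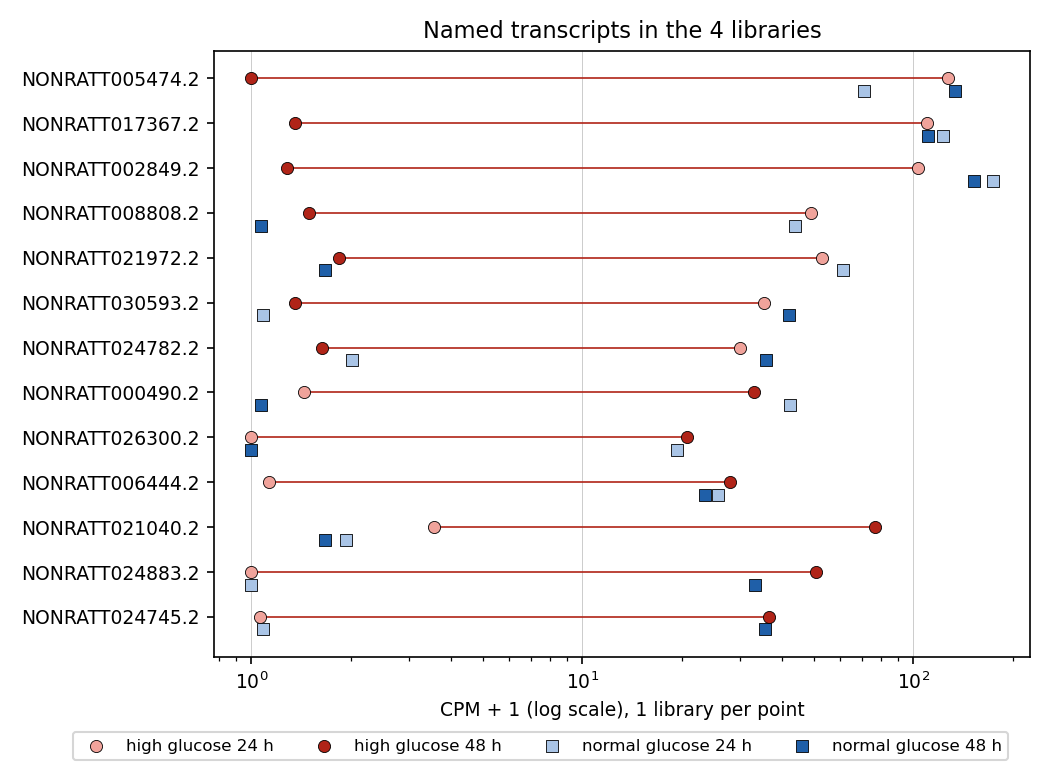
CPM + 1 (log scale) of 13 named transcripts in each of the 4 libraries, 1 library per point, with circles for high glucose joined by a line and squares for normal glucose. From top to bottom, the first 3 lines have only the 48 h high glucose point at the left, the next 2 have both 48 h points at the left, and the 4 after that have the times reversed between media. The last 4 are higher at 48 h in high glucose, 2 with normal glucose flat and 2 with both media alike.

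Near-complete losses and gains were counted with limits chosen after the data were seen. Of 3072 measured transcripts with at least 50 reads at 24 h in high glucose, 45 (1.46%) had 3 reads or fewer at 48 h, and 17 of these were not listed there. Conversely, of 2684 with at least 50 reads at 48 h, 32 (1.19%) had 3 or fewer at 24 h, 7 of them none. The same limits gave 30 losses (1.16%) and 27 gains (0.898%) in normal glucose, and 6 losses and 6 gains were shared by both media. Among the 45 lost in high glucose, the levels at 24 h ran from 3.19 to 126 CPM, with a median of 7.54. Of the 45, 14 had at least 50 reads in both normal glucose libraries, 8 in the 24 h one alone, 6 in the 48 h one alone and 17 in neither. Among the 32 gained, only 4 had at least 50 reads in both normal glucose libraries, 6 in the 24 h one alone and 9 in the 48 h one alone. Single blocks made up 31.1% of the 45 lost and 53.1% of the 32 gained, beside 53.8% and 55.5% of all measured transcripts with at least 50 reads at 24 h and at 48 h.

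Abundant transcripts, with a mean of at least 50 CPM over the 2 high glucose libraries, numbered 227, of which 12 were at least 2-fold lower and 2 at least 2-fold higher. For the same 227 transcripts, TMM or size factors gave 9 lower and 3 higher, and equal lncRNA sums 10 and 3. The pair that was higher with library totals differed in size. NONRATT004188.2 (chr10:31237556-31240582, 3027 nt in a single block) went from 12.6 to 107.6 CPM, 8.55-fold higher (7.36 to 9.96). In normal glucose it was 85.3 CPM at 24 h and 289.9 CPM at 48 h, 3.40-fold higher (3.17 to 3.64) from a higher start. Its time ratio in high glucose divided by that in normal glucose was 2.51 (2.13 to 2.98). NONRATT026391.2 (chr7:2972906-2973953, 716 nt after splicing) went from 72.8 to 152 CPM, 2.09-fold higher (1.95 to 2.25), while its normal glucose levels of 80.2 and 76.4 CPM had a ratio whose interval included 1 (0.952, 0.873 to 1.04).

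The largest loss in CPM was that of NONRATT007996.2 (chr12:39957131-39959077, 217 nt after splicing), a short transcript among the most abundant. It stood at 753 CPM at 24 h and 262 CPM at 48 h in high glucose, 2.87-fold lower (2.77 to 2.98). The normal glucose libraries held 851 CPM and 825 CPM, so 3 libraries lay close together and the 48 h high glucose library lay below them. Its difference of 491 CPM was the largest of any measured transcript on library totals. The second largest was that of NONRATT008251.2 (chr13:52663050-52680902, 1027 nt after splicing), from 963 to 727 CPM. The largest gain was at the same locus, where NONRATT008253.2 (chr13:52667340-52680873, 1785 nt after splicing) went from 469 to 839 CPM, 1.79-fold higher (1.74 to 1.84), against 540 and 495.5 CPM in normal glucose. The sum over the 8 listed transcripts of that locus was 1.08 times as high at 48 h (1.07 to 1.10), at 1765 and 1913 CPM. The isoforms there differed more between the times than the locus sum.

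The net difference over the measured transcripts turned with the scaling. On library totals it was -4512 CPM, from 65465 to 60954. With TMM factors it was 1690 CPM, and with size factors 1686. These factors were fitted on the same lncRNA counts and take out most of a shift common to them. The sign under them therefore cannot show whether the summed level differed. On library totals, differences below 0 came to -11120 CPM over 4329 transcripts and those above 0 to 6608 CPM over 2984. The 318 transcripts past 2-fold lower held 7.75% of the measured lncRNA level at 24 h and 1.94% at 48 h, a change of -3894 CPM. The 188 past 2-fold higher went from 0.753% to 4.41% and gained 2195 CPM. The 6815 transcripts within 2-fold had a net change of -2813 CPM on library totals and of 2988 CPM with TMM factors. For the 188 and the 318 the net changes with TMM factors were 2455 and -3753 CPM, the same signs as on library totals. On library totals the 10 largest losses made up 15.5% of all loss, and the 10 largest gains 15.5% of all gain.

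Setting each transcript beside its own course in normal glucose asks whether time alone went with the same difference there. The pairs of libraries behind the 2 courses have no library in common. Over all measured transcripts, 95.3% were within 2-fold between the times in normal glucose. Of the 188 transcripts past 2-fold higher in high glucose, 132 (70.2%) were within 2-fold in normal glucose, 31 were higher and 25 lower. Of the 318 past 2-fold lower, 240 (75.5%) were within 2-fold, 44 were lower and 34 higher. The medians of their log2 ratios in normal glucose were -0.04 and -0.02, beside a median of 0.01 over all measured transcripts. Transcripts past 2-fold in both media numbered 134, which is 26.5% of those called in high glucose and 39.2% of those called in normal glucose. The ratio of both time ratios was past 2-fold for 783 transcripts (10.7%), 332 higher and 451 lower in high glucose. The split turned with the scaling, to 384 and 382 with TMM factors and 387 and 379 with size factors. Both sets of factors were fitted on these lncRNAs, so a near-even split is largely built in. On library totals the ratio of ratios was past 2-fold for 395 of the 506 called in high glucose. A high share is largely built in there, since the 506 were chosen by the high glucose ratio that it contains.

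**Figure D3:**
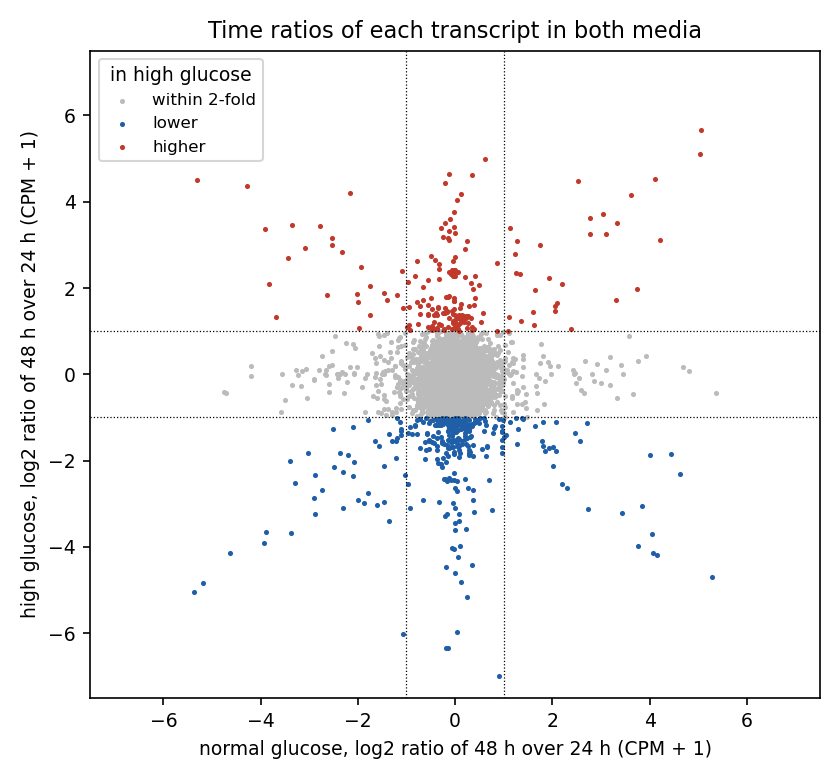
Log2 ratio of 48 h over 24 h (CPM + 1) in normal glucose (horizontal axis) and in high glucose (vertical axis) for the 7321 measured transcripts, with dotted lines at 2-fold. The points form a cross: most transcripts past 2-fold in high glucose lie within 2-fold in normal glucose, and 134 lie past 2-fold in both, in all 4 corners.

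Where normal glucose stayed level, within 0.25 of 0 on the log2 scale, 72 transcripts were past 2-fold higher and 131 past 2-fold lower in high glucose. They were 4.51% of the 4502 transcripts level in normal glucose, below the 6.91% past 2-fold among all 7321 measured. NONRATT006444.2 (chr11:31813129-31813576, 448 nt in a single block) ranked first among the higher. It had 2 reads at 24 h and 384 at 48 h in high glucose, 211-fold higher (58.1 to 1751). Its normal glucose levels were 24.7 and 22.5 CPM, near the 27.0 CPM of high glucose at 48 h, so here the 24 h high glucose library stood alone. NONRATT021040.2 (chr4:180132182-180135931, 3750 nt in a single block) showed the reverse arrangement. It went from 2.56 to 75.3 CPM, 29.5-fold higher (21.5 to 41.5), with 11 and 10 reads in the normal glucose libraries. The ratio of its time ratios was 40.1 (14.5 to 112). Among single blocks, NONRATT001568.2 (chr1:228727070-228729054, 1985 nt) ranked second of the higher, with 3 reads at 24 h and 401 at 48 h, 147-fold higher (49.97 to 716). In normal glucose it stood at 11.6 and 15.0 CPM, between both high glucose levels of 0.192 and 28.2 CPM. NONRATT017367.2 and NONRATT002849.2, described above, ranked first and second among the lower.

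Time went with the same difference in both media for a smaller group. NONRATT008808.2 (chr13:69908813-69917207, 3017 nt after splicing) stood at 48.0 and 42.9 CPM at 24 h in high and normal glucose, and had 7 reads and 1 read at 48 h. NONRATT021972.2 (chr4:179482558-179512484, 4545 nt after splicing) stood at 51.9 and 60.3 CPM at 24 h and at 0.844 and 0.673 CPM at 48 h. The ratio of its time ratios was 1.46 with an interval of 0.573 to 3.79, which includes 1 but does not show that the courses were equal. Among the 10 ranked lowest in both media, the smaller of both log2 sizes ran from 2.51 to 5.04, and among the 10 ranked highest from 2.77 to 5.05.

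Opposite courses were found for 59 transcripts past 2-fold in each medium (0.806%), 25 of them higher and 34 lower in high glucose. NONRATT000490.2 (chr1:82230930-82234051, 3122 nt in a single block) went from 0.447 to 32.1 CPM in high glucose, 71.7-fold higher (34.5 to 179), and from 41.3 to 0.0673 CPM in normal glucose. NONRATT030593.2 (chrX:71552333-71555281, 2886 nt after splicing) went the other way, from 34.3 to 0.351 CPM in high and from 0.0842 to 41.1 CPM in normal glucose. For these transcripts the 24 h library of 1 medium resembled the 48 h library of the other.

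To describe which library stood apart, each library of the other medium was placed nearer the 24 h or the 48 h level of the transcript, on log2 (CPM + 1). Of the 506 transcripts past 2-fold in high glucose, both normal glucose libraries lay nearer the 24 h level in 249 (49.2%) and nearer the 48 h level in 94 (18.6%). The normal glucose libraries followed the same order of times in 79 (15.6%) and the reverse order in 84 (16.6%). The same placing for the 342 transcripts past 2-fold in normal glucose gave 94 (27.5%), 96 (28.1%), 79 (23.1%) and 73 (21.3%). The first arrangement in high glucose took in 170 of the 318 lower (53.5%) and 79 of the 188 higher transcripts (42.0%). Under the other scalings 48.2% of those called in high glucose had both normal glucose libraries nearer 24 h. Past 8-fold it took in 27 of 81 transcripts, and 20 of 64 in normal glucose. A property of the 48 h high glucose library and an effect of continued high glucose cannot be told apart with 1 library.

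**Figure D4:**
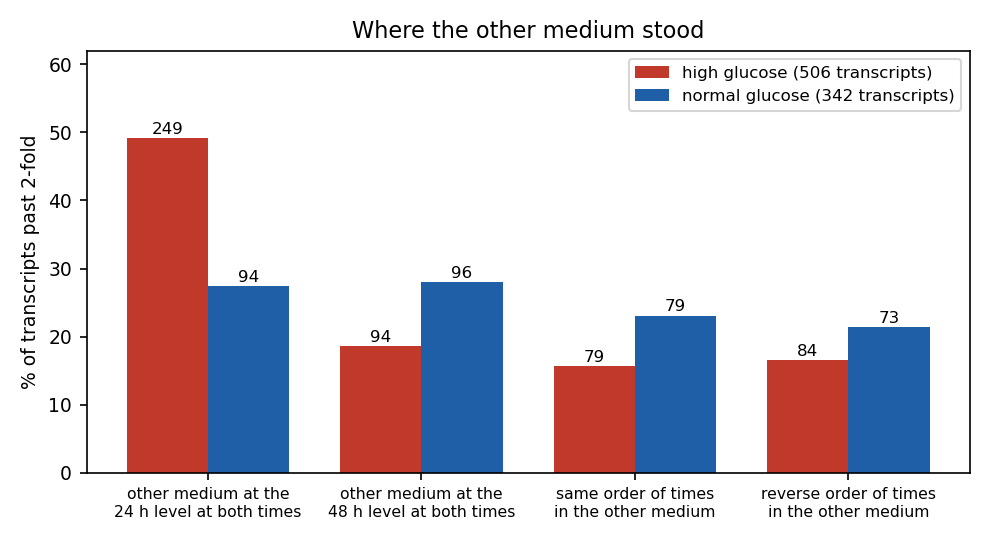
Percent of the transcripts past 2-fold in high glucose (506) and in normal glucose (342) by where both libraries of the other medium stood, with the number of transcripts above each bar. In high glucose 249 (49.2%) had the other medium nearer the 24 h level at both times, against 94 (27.5%) in normal glucose.

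Isoforms of 1 locus are described together, where a locus joins listed transcripts in a chain when their spans share 1 base or more. Reads that fit several overlapping isoforms cannot be assigned from the counts alone, and the method of assignment was not given in the sources used here. Of the 506 transcripts past 2-fold, 281 were alone at their locus and 225 shared it. In 122 of these 225 (54.2%) the sum over the locus stayed within 2-fold, in 46 of 76 higher and 76 of 149 lower. Sums over 6201 loci gave 142 higher and 246 lower loci, 6.26% of the loci.

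In 13 of the 719 loci with at least 2 measured transcripts, isoforms lay past 2-fold in opposite directions in high glucose, and in 10 of these 13 the locus sum stayed within 2-fold. Normal glucose had 11 such loci, and 2 were shared. Of the 30 transcripts involved in high glucose, 29 were spliced, beside 2037 of all 2524 measured transcripts that shared a locus. Over all 719 loci, the isoform with the most reads was a different one at 48 h than at 24 h in 139 (19.3%) in high glucose and in 125 (17.4%) in normal glucose.

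The first-ranked exchange was on chromosome 7, at 142238760 to 142244141, among 6 listed transcripts. NONRATT026298.2 (chr7:142238799-142243185, 736 nt) had 542 reads at 24 h (34.6 CPM) and none at 48 h in high glucose, and NONRATT026300.2 (chr7:142239123-142243459, 742 nt) had none at 24 h and 280 at 48 h (19.7 CPM). By the 95% counting intervals, the first was at least 133-fold below, and the second at least 83.0-fold above, its 24 h level. In normal glucose NONRATT026298.2 stayed at 31.6 and 37.4 CPM, while NONRATT026300.2 went from 18.4 CPM to 0. The locus sum was 90.5 and 69.2 CPM in high glucose and 85.8 and 98.9 CPM in normal glucose, a much smaller difference than that of either isoform.

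The second exchange was on chromosome 6, at 6696170 to 6709782, where 2 spliced transcripts of similar span are listed. NONRATT024781.2 (821 nt) took 20.2% of the locus reads at 24 h and 99.3% at 48 h in high glucose, and 98.8% and 17.5% in normal glucose. NONRATT024782.2 (766 nt) took the remainder, going from 29.0 to 0.633 CPM in high glucose, 45.8-fold lower (23.9 to 101), and from 1.01 to 34.9 CPM in normal glucose. Each medium thus had both isoform states, in reverse order of time. Here the locus sum differed as well, at 36.3 and 90.9 CPM in high glucose, 2.50-fold higher (2.26 to 2.77), and 85.5 and 42.3 CPM in normal glucose. A locus on chromosome 6 at 86785788 to 86812078, chosen after its values were seen, showed the same reversal with a steady sum of 92.0, 111, 97.8 and 103.5 CPM (high glucose at 24 h and 48 h, then normal glucose). One of its isoforms took 58.3% and 14.4% of the reads in high glucose and 14.3% and 57.7% in normal glucose.

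**Figure D5:**
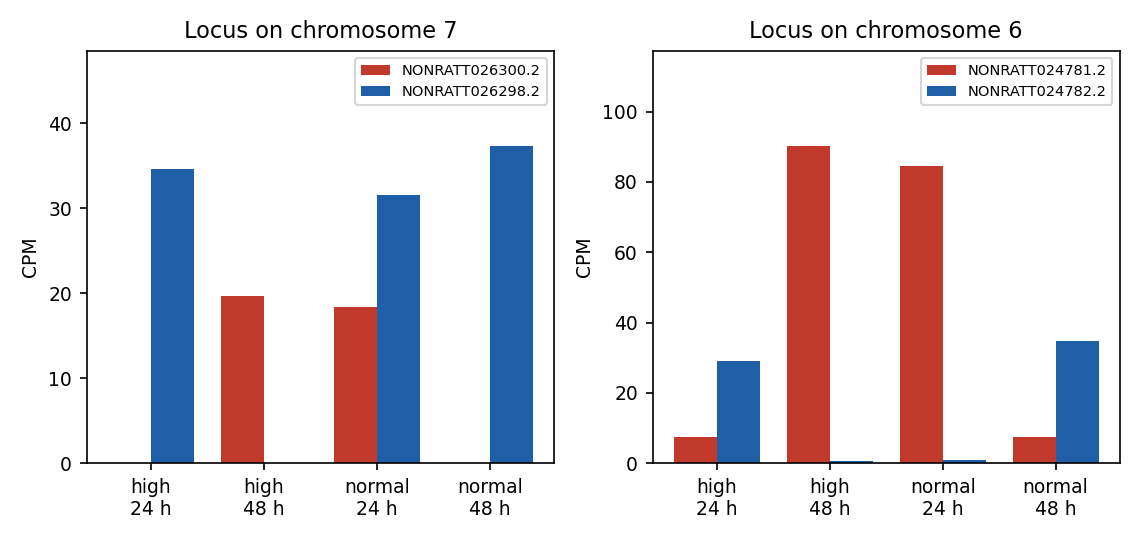
CPM of 2 isoforms of a locus on chromosome 7 (left) and of a locus on chromosome 6 (right) in the 4 libraries, 1 library per bar. On the left the isoform in blue is at 34.6 CPM at 24 h and absent at 48 h in high glucose, where the isoform in red appears at 19.7 CPM. On the right the isoform in red is the higher of the pair at 48 h in high glucose, and at 24 h in normal glucose.

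The share past 2-fold was 8.49% among 4018 spliced transcripts and 5.00% among 3303 single blocks. Those spliced and sharing a locus had 10.1%, those spliced and alone 6.87%, single blocks alone 5.15% and single blocks sharing a locus 4.11%. In normal glucose the shares of spliced and single-block transcripts were 5.50% and 3.66%. By length, the share was 6.08% up to 500 nt and 8.92% over 2000 nt. The counting interval excluded 1 for 22.4% of the shorter and 48.1% of the longer. On library totals, transcripts over 2000 nt had 36 higher and 35 lower, whereas those between 500 and 1000 nt had 70 and 145. These splits were not computed with the other scalings, and read depth was not held equal between lengths. No test of these differences between classes was made, since transcripts of 1 library pair are not replicates.

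By level, the share past 2-fold was 2.14% among transcripts under 1 CPM, where the pseudocount of 1 limits the ratio, 9.84% between 2 and 5 CPM and 6.17% at 50 CPM and over. Across chromosomes it ran from 3.74% on chromosome 11 to 8.95% on chromosome 6, beside 6.91% overall. On chromosome X it was 8.85%, with 9 higher and 14 lower of 260. Of measured transcripts of other loci within 100000 bases, 4.05% were past 2-fold lower beside a lower transcript and 4.18% beside a transcript within 2-fold. Beside a higher transcript, 3.88% of the neighbours were higher, from 14 of 361, and 2.32% beside a transcript within 2-fold.

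Identifiers from Ensembl covered 109 measured transcripts, of which 1 was past 2-fold higher and 5 lower (5.50%). The lowest, ENSRNOT00000090394 (chr7:83989468-83991369, 459 nt after splicing), had 181 reads at 24 h and none at 48 h in high glucose, 54.8-fold lower against the floor of 3 counts. It had 164 reads and none in normal glucose, so both 48 h libraries lacked it. The highest, ENSRNOT00000075924 (chr20:47253664-47263390, 932 nt after splicing), went from 22.7 to 62.1 CPM, 2.74-fold higher (2.42 to 3.10), and from 20.2 to 30.6 CPM in normal glucose, 1.51-fold higher (1.29 to 1.78). The sum of the 2 transcripts at its locus was 1.33-fold higher in high glucose (1.24 to 1.42). The second lowest, ENSRNOT00000076276 (232 nt, on chromosome 14), had 64 reads at 24 h and 15 at 48 h, 3.88-fold lower (2.18 to 7.33), against 40 and 44 reads in normal glucose. The second highest, ENSRNOT00000082683 (4311 nt, on chromosome X), had 105 and 188 reads, 1.97-fold higher (1.54 to 2.53), and did not pass 2-fold on library totals. With the other scalings its CPM ratio was 2.12 to 2.17. Transcripts assembled in the study itself numbered 226, with 5 higher and 6 lower (4.87%). The 6986 with NONCODE identifiers had 182 higher and 307 lower.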

How the data were processed

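The authors deposited 1 table per library with raw read counts and FPKM values per lncRNA transcript, per the file headers, and transcript length in 1 of them. Per the labels' protocols, a TruSeq kit that keeps strand was used on total RNA. The submitters' processing notes list TopHat2 2.1.0 and Cufflinks as tools and rn6 and Rnor_6.0 as builds, without saying what each served for. A counting tool and its strand setting were not given in the sources used here, so antisense reads cannot be told apart. A transcript not listed was taken as 0. Library totals were recovered as the median value that joins count, length and FPKM, and 1219 missing lengths from them. What those totals count (reads or fragments) is not known. A RefSeq gene table of another assembly held 0 of the 17934 identifiers. Samples were grouped by title. Ratios were taken on log2 (CPM + 1), and intervals are exact (Clopper-Pearson) at 95%. For a ratio of time ratios they are conditional exact odds ratio intervals. All cover counting error only, since each group has 1 library. Because PCR reads are not independent molecules, the intervals may be too narrow even for counting error. The interval code was tested on simulated counts that held counting error only. That test checks the code, and does not cover duplicate reads or reads shared by isoforms. Scaling used edgeR 4.0.16 (TMM) and DESeq2 1.42.0 (size factors) on the counts of the measured lncRNAs, with Python 3.11.15 and scipy 1.17.1. The rule ranked measured transcripts by ratio, by ratio at 50 CPM and over, by CPM difference, by agreement or opposition between media, by ratio where normal glucose was level, by opposite isoforms, and among single blocks and Ensembl transcripts. The first 2 in each direction could be named. Members, lists and tests were chosen with earlier results of these data known.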

Additional observations from a re-analysis of the deposited data

Results flagged for a closer look

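Opposite courses in the 2 media met the rule for a closer look. It covered 25 transcripts at least 2-fold higher at 48 h in high glucose and 2-fold lower in normal glucose, and 34 with the reverse. The difference between the media was not tested, since each course is 1 library against 1. Ranked first and second among the higher were NONRATT000490.2, with a log2 ratio of 4.51 in high glucose and -5.31 in normal glucose, and NONRATT026300.2, with 4.37 and -4.27. Ranked first and second among the lower were NONRATT030593.2, with -4.71 and 5.28, and NONRATT024782.2, with -4.20 and 4.16. NONRATT026300.2 and NONRATT024782.2 belong to the isoform exchanges on chromosomes 7 and 6.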

How the results depend on the processing

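No paired analysis was possible because each group has 1 library, and no library could be left out for the same reason. The median log2 ratio in high glucose, -0.09 as reported, was 0.0065 with TMM factors and with size factors, -0.020 with equal lncRNA sums, -0.11 and -0.066 with pseudocounts of 0.5 and 2 CPM, -0.012 with no filter and -0.10 at a mean of at least 5 FPKM. The count of lower transcripts, 318, became 488 and 201 with pseudocounts of 0.5 and 2 CPM. Stricter filters, which test fewer transcripts, gave 71 higher and 136 lower at 5 FPKM, and 99 and 165 at a mean count of at least 50. The ratio of lncRNA shares was 0.935 without the 10 most abundant transcripts. The other 32 values of this kind moved by less than 1.5 times for counts, or within their intervals. For the median, the interval was taken from ranks over the transcripts, which are not replicates. It serves only as a yardstick for the size of a shift. The other scalings were set from the lncRNA counts themselves, so a median near 0 with them is largely built in. They multiply all CPM ratios in high glucose by a common factor, at most 1.10. This put 11 values of the 25 named transcripts outside their counting intervals and left 64 within. The CPM sums and the abundant transcripts under these scalings were added after seeing the data. At the floor of 3 counts, 0.192 and 0.211 CPM in the high glucose libraries, low transcripts cannot show large ratios.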
